A study of Mus musculus with 96 samples.

Results

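DNA repair genes were followed through maps of chromatin marks in hippocampal nuclei of mice that lacked the DNA glycosylases Ogg1, Mutyh or both. The 48 genes were taken from a list of base excision, mismatch, nucleotide excision and double-strand break repair genes, and a region was counted as theirs when the deposited annotation gave it their symbol. Of 22815 regions in 6 tables, 62 belonged to 38 of the 48 genes. The tables held H3K4me3, H3K27me3 and Suz12 in NeuN+ (neuronal) and NeuN- (non-neuronal) nuclei, with 12 libraries each, 72 in all. With 3 replicates each, the 4 genotypes were wild-type mice (WT), both single knockouts (Mutyh-/- and Ogg1-/-) and the double knockout bred from them (DKO). All mice were males of 6 months on a C57BL/6N background with no treatment, and every replicate was a pool of hippocampi from several animals of the same genotype. The knockouts were constitutive, so a change in the nuclei could not be told apart from a change that began elsewhere or earlier, and which exons the alleles lack is not given in the sources used here.

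Base excision repair removes small base lesions. A glycosylase cuts out the damaged base, an endonuclease opens the strand, and a polymerase and a ligase close the gap. Ogg1 removes oxidised guanine opposite cytosine and Mutyh removes adenine that was paired with oxidised guanine. H3K4me3 marks the starts of active genes, H3K27me3 is the silencing mark set by Polycomb repressive complex 2 (PRC2), and Suz12 is a core subunit of PRC2. Most housekeeping genes start in CpG-rich sequence that carries H3K4me3.

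The H3K4me3 mark was present at almost every repair gene in neurons. In NeuN+ nuclei, 46 of the 48 genes (95.8%) had an H3K4me3 region within 1000 bp of an annotated RefSeq start, against 11697 of 21000 protein-coding genes (55.7%). By the deposited gene names alone 38 of 48 (79.2%) had one there, against 10920 genes (52%). The other 8 were covered by a region named after a neighbouring gene. The exceptions were Neil3, a glycosylase for oxidised pyrimidines that is known from dividing cells, and Apex2, an endonuclease gene on the X chromosome. On that chromosome 193 of 902 genes (21.4%) were covered. In NeuN- nuclei 12 of 48 genes (25%) were covered, against 3280 of all genes (15.6%).

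Repair genes often shared their start region with a second gene. For 18 of 48 (37.5%) another gene began on the opposite strand within 1000 bp upstream, against 1849 of all protein-coding genes (8.80%). Among the covered genes the shares were 17 of 46 (37.0%) and 1701 of 11697 (14.5%). Mutyh and Toe1 start 175 bp apart, Mbd4 and Ift122 187 bp, Nthl1 and Tsc2 55 bp, Nudt1 and Mrm2 58 bp, and Apex1 and Osgep 56 bp. Where a window covers or lies close to both starts of a pair, its signal cannot be assigned to either gene. The deposited annotation named the Mutyh region after Toe1 and the Mbd4 region after Ift122.

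The sequences upstream of 4 starts are shown because the results turn on these genes: Ogg1 and Mutyh are the deleted genes, Msh6 had the highest H3K4me3 signal among the 48, and Neil3 had no region. They are given 5′ to 3′ on the strand of the gene, from RefSeq on GRCm38.p6, with each CpG in capitals. The Ogg1 sequence lies at chr6:113326726-113326975 on the plus strand, the interval between the Mutyh and Toe1 starts at chr4:116807560-116807733 on the plus strand, the Msh6 sequence at chr17:87974800-87975049 on the plus strand, and the Neil3 sequence at chr8:53639066-53639315 on the minus strand.
Ogg1: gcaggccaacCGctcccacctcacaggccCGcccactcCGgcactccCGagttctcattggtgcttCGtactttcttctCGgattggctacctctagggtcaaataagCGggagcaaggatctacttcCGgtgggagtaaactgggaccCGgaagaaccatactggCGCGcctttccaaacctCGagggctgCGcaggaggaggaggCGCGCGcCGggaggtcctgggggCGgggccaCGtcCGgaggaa
Mutyh: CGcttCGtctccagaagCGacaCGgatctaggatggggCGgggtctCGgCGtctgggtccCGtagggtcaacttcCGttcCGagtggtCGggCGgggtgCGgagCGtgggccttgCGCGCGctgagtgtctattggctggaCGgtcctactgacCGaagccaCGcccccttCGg
Msh6: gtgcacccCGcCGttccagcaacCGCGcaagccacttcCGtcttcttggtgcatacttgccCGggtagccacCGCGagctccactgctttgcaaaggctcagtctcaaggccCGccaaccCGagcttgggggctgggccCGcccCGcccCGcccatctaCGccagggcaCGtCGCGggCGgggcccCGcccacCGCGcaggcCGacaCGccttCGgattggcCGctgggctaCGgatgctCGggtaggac
Neil3: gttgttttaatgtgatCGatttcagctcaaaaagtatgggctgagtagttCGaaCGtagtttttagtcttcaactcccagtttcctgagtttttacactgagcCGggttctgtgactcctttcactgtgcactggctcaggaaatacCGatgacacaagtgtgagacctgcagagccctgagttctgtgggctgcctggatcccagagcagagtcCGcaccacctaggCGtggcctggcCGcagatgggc
Ogg1 had 20 CpG in 250 bp, the Mutyh and Toe1 interval 21 in 174 bp, Msh6 27 in 250 bp and Neil3 8 in 250 bp. Lower counts were also found at genes with a NeuN+ H3K4me3 region: Xrcc1, Fen1 and Xrcc5 had 5 CpG each in 250 bp. Apex2, which had no region, had 10 in 87 bp. With the 50 bp downstream of its start added, Neil3 had 14 CpG in 300 bp. The start regions of 300 bp (250 bp upstream and 50 bp downstream) held a median of 22 CpG over 47 promoters of 39 repair genes (lowest 2, highest 37), 21 over promoters with an H3K4me3 region in NeuN+ nuclei, and 7 over all 32851 promoters. These promoters came from only 39 of the 48 genes, although each of the 48 has a RefSeq start, so the CpG counts and the motif shares below describe a subset.

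Short motifs were searched on both strands of the same 300 bp. The ETS core CCGGAAG was in 13 of 47 repair gene promoters (27.7%), against 15.9% of promoters with a NeuN+ H3K4me3 region and 8.86% of all promoters. The E-box CACGTG was in 10 (21.3%, against 9.83% and 7.15%), and CCAAT in 24 (51.1%, against 36.8% and 37.4%). The GC box GGGCGG, in 31 (66.0%, against 64.4% and 35.7%), was close to its share among marked promoters. The TATA box letters TATAAA were in 4 (8.51%, against 6.69% and 13.6%). Genes with several starts were counted once per start, here and among all promoters. The overlapping Nudt1 promoters from 140331610 and from 140331706 held the same CCGGAAG, so hits are not genes. These are matches of letters, and no binding was measured.

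Depth was modest. Reads in regions per library ranged from 96023 to 548706 in the H3K4me3 NeuN+ table and from 39320 to 120004 in the NeuN- table, and from 6652 to 78250 in the other 4. A median of 19 reads lay in a repair gene promoter region per NeuN+ H3K4me3 library and 9 per NeuN- library. Values below are signal, which is reads in a window of 401 bp divided by a factor for each library. As a check of the sort, 9 of 10 neuronal marker genes (all but Gad2) had an H3K4me3 region in NeuN+ nuclei and none had one in NeuN- nuclei, with a summed WT signal of 195 to 324 per library in NeuN+. Of 16 non-neuronal markers 3 (Mbp, Oaf and Slc1a3, summed WT signal 53.7 to 78.5) had one in NeuN+ and only 2 (Oaf and Olig1, 8.27 to 23.5) in NeuN-, where Gfap, Aqp4, Mog, Cx3cr1 and Csf1r had none. The NeuN- table thus carried few of the markers of its own cell types.

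In neurons 40 H3K4me3 regions belonged to repair genes, and 38 of them, 1 per gene, lay at promoters. Their WT signal had a median of 21.0 (quartiles 16.2 and 26.4), against 24.1 (17.5 and 29.8) over all 11771 promoter regions. The coefficient of variation over the 12 libraries had a median of 38.5%, against 35.4%. In 76.3% of them the window itself covered the start, against 54.6% of all promoter regions. The highest WT means were those of Msh6 (44.2 ± 18.8, SD, n = 3), Lig3 (42.7 ± 11.2) and Atr (35.1 ± 11.0), and the lowest those of Prkdc (6.26 ± 4.41), Parp2 (10.2 ± 3.51) and Ogg1 (10.7 ± 4.79). Msh6 recognises mismatched bases, Lig3 seals nicks at the end of base excision, and Atr is a kinase that signals stalled replication. Msh6, Lig3 and Atr stood at percentiles 99.6, 99.2 and 91.2 of all promoter regions, and Prkdc, Parp2 and Ogg1 at 1.40, 5.24 and 6.12. The Atr window covers the RefSeq start of 1700065D16Rik and lies 77 bp from that of Atr. Windows named after Apex1, Nthl1, Nudt1, Pms2, Xpc, Mre11a and Fen1 also cover a neighbour's start. The signal in these windows cannot be assigned to either gene. The WT libraries of the upper and the lower 3 did not overlap, while neighbours within each 3 did not differ beyond their SD.

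**Figure D1:**
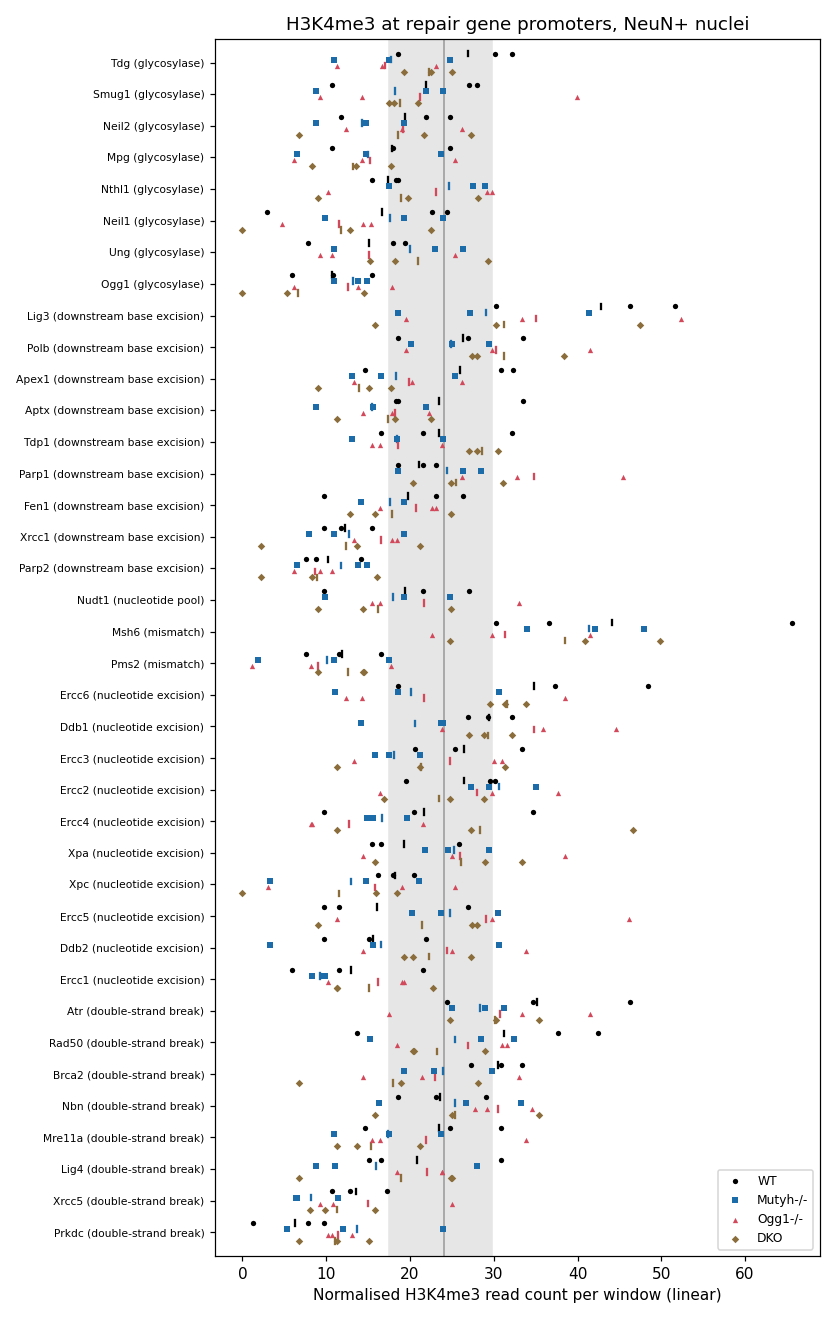
H3K4me3 signal (horizontal axis, reads divided by a library factor) at the promoter regions of 38 repair genes in NeuN+ nuclei, by gene and genotype. Dots are the 12 libraries, ticks are genotype means, and the grey band is the range between quartiles (17.5 and 29.8) of the WT means of all 11771 promoter regions with their median (24.1) as a line; most genes lie inside the band and the genotypes overlap at nearly every gene.

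The knockout mice were compared with WT to ask whether loss of the glycosylases changed the mark at repair genes. A region was called when the unadjusted p was under 0.05 and the absolute log2 fold change over 0.5, on the log2(value + 1) scale. With limma, 0 of the 40 regions were called in Mutyh-/-, where 0.911% of all regions were called, 0 in Ogg1-/- (0.966% of all) and 0 in DKO (1.46% of all). Of these 120 tests 0 had an unadjusted p under 0.05, and the lowest Benjamini-Hochberg adjusted p was 1.00 in each contrast. Scaling by TMM instead of by the authors' factors gave 6 calls with limma and 7 with edgeR, and DESeq2 gave 4, with 0 at an adjusted p under 0.05 in all of them. Under these settings the shares of all regions called were 3.75% to 5.54% with limma, 3.88% to 4.01% with edgeR and 2.81% to 2.99% with DESeq2, depending on the knockout, so the calls in 120 tests were near the background. In the limma fit under the authors' scaling the median standard error of a log2 fold change was 0.50, and changes of that size were not detectable. The parts of depth and scaling in this were not tested. In sorted nuclei measured in bulk, fewer nuclei with a mark and less mark per nucleus cannot be told apart.

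The signal at the Ogg1 promoter, which the deposited annotation places at chromosome 6, 113326823 to 113327223, was low in every genotype. It was 15.4, 5.85 and 10.8 in WT, 10.9, 13.8 and 14.9 in Mutyh-/-, 17.9, 6.15 and 13.8 in Ogg1-/-, and 0, 14.5 and 5.31 in DKO. The genotypes overlapped, and the Ogg1-/- libraries carried as much signal as WT (log2 fold change 0.20, SE 0.80, limma adjusted p = 1.00). In Mutyh-/- the change was 0.36 (95% interval -1.27 to 1.99). In DKO it was -1.25 (95% interval -2.88 to 0.37), not called, and that value turned on single libraries. Without DKO replicate 1, which had 0 reads there, it was -0.15, and without DKO replicate 2 it was -2.13 and was called by limma. DKO replicate 1 was the shallowest H3K4me3 NeuN+ library, with 96023 reads in regions, and 0 reads there allow a signal of up to 6.77, counting error only. All 3 values of 0 among the promoter regions, at Ogg1, Neil1 and Xpc, came from it.

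Mutyh had no region under its own name. The region named after Toe1, at chromosome 4, 116807234 to 116807634, holds the sequence between both starts in part and had a signal of 38.6, 11.7 and 10.8 in WT, 15.3, 17.5 and 31.5 in Mutyh-/-, 17.9, 15.4 and 33.1 in Ogg1-/-, and 15.8, 20.1 and 19.7 in DKO. WT replicate 1 was the highest of the 12 and all genotypes overlapped. The log2 fold changes were 0.24, 0.28 and 0.10 for Mutyh-/-, Ogg1-/- and DKO, with an SE of 0.51 each and none called by limma. Neither region checks the knockout, because a deletion inside the gene need not touch its start.

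Of the 11 glycosylases 8 had a promoter region in neurons, with WT means from 10.7 (Ogg1) to 26.9 (Tdg). Tdg removes thymine or uracil mispaired with guanine, Ung and Smug1 remove uracil, Neil1, Neil2 and Nthl1 remove oxidised pyrimidines, and Mpg removes alkylated purines. Tdg had a signal of 32.2, 18.5 and 30.2 in WT, 10.9, 24.8 and 17.5 in Mutyh-/-, 16.7, 11.3 and 23.1 in Ogg1-/-, and 22.6, 19.3 and 25 in DKO. The single knockouts lay lower on average (log2 fold changes -0.61 and -0.65, SE 0.47 each, not called by limma) but overlapped WT. Neil1 was spread widely in WT (24.4, 2.93 and 22.6) and in DKO (0, 22.5 and 12.9), and its changes ran from -0.95 to 0.40. For Neil2, Nthl1, Smug1, Mpg and Ung the WT means were 19.4, 17.4, 21.9, 17.8 and 15.1, and the changes in any knockout ran from -0.43 to 0.49, all smaller than their SE.

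Among the downstream base excision genes, 9 of 11 had a promoter region, with WT means from 10.2 (Parp2) to 42.7 (Lig3). Apex1, the main endonuclease for abasic sites, had 30.9, 14.6 and 32.3 in WT and 9.02, 17.7 and 15.2 in DKO, a log2 fold change of -0.82 (95% interval -1.83 to 0.19) between overlapping groups. Lig3 had 46.3, 30.2 and 51.7 in WT and 15.8, 47.4 and 30.3 in DKO, and its changes were -0.58, -0.35 and -0.54 in Mutyh-/-, Ogg1-/- and DKO, none called. Parp1, which senses strand breaks, had 23.2, 18.5 and 21.5 in WT and 26.2, 32.8 and 45.4 in Ogg1-/-. The Ogg1-/- libraries of Parp1 all lay above WT (log2 fold change 0.67, 95% interval -0.15 to 1.48), and Prkdc did the same, among 2.83% of all regions that did so in Ogg1-/-. Polb, the gap-filling polymerase, and Fen1, the flap nuclease, differed from WT by at most 0.26 in any knockout. Nudt1, which cleanses the nucleotide pool of oxidised precursors, had a WT mean of 19.4 and changes of -0.09, 0.17 and -0.25 at its promoter.

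In mismatch repair, Msh6 had 65.6, 30.2 and 36.6 in WT and changes of -0.03, -0.45 and -0.17, and Pms2, a partner in mismatch incision, had a WT mean of 11.9 and changes of -0.53, -0.78 and 0.11. Nucleotide excision repair had 12 regions of 10 genes, with changes from -1.47 for Xpc, which detects distorted DNA, in DKO (SE 0.86) to 0.83 for an upstream region of Ercc1 in DKO (SE 0.64). Ddb1, part of the complex that finds ultraviolet damage, had 32.2, 29.3 and 26.9 in WT and 14.2, 23.9 and 23.7 in Mutyh-/-. All 3 Mutyh-/- libraries of Ddb1 lay under WT (log2 fold change -0.53, 95% interval -1.33 to 0.27), as in 3.61% of all regions. The region 2498 bp from the RefSeq start of Ercc1 had 10.3, 16.6 and 20.5 in WT and 22.6, 32.2 and 29.6 in DKO, without overlap, as in 3.1% of all regions.

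The double-strand break genes had 8 promoter regions. Of all 120 tests the one nearest to a call was that of Brca2, which acts in homologous recombination, in DKO. Its signal was 30.9, 27.3 and 33.4 in WT, 22.9, 19.3 and 29.8 in Mutyh-/-, 21.4, 14.4 and 33.1 in Ogg1-/-, and 6.77, 28.1 and 19.0 in DKO. The DKO libraries overlapped WT and the lowest of them was replicate 1 again (log2 fold change -0.93, 95% interval -1.89 to 0.03, limma adjusted p = 1.00). Prkdc, the catalytic subunit of the end-joining kinase, had 1.29, 7.81 and 9.69 in WT and 10.7, 10.3 and 13.1 in Ogg1-/- (log2 fold change 1.04, 95% interval -0.44 to 2.51). The region of Prkdc lies 46 bp from the start of Mcm4, which runs on the other strand.

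Across the 38 promoter regions the median log2 fold change was -0.26 in Mutyh-/-, -0.07 in Ogg1-/- and -0.18 in DKO, against -0.07, 0.08 and -0.02 over all promoter regions. Values above 0 were found at 11 of 38 (28.9%), 17 (44.7%) and 12 (31.6%), against 41.8%, 58.9% and 47.4% of all promoter regions. The genes were not independent of each other, since they shared the libraries. Single libraries moved these medians: with each knockout library set against the WT mean in turn, the median ran from -0.50 to 0.08 in Mutyh-/-, from -0.52 to 0.45 in Ogg1-/- and from -0.49 to 0.20 in DKO. Leaving out libraries one at a time turned the Ogg1-/- median to as much as 0.23 and the DKO median to 0.09, while the Mutyh-/- median stayed between -0.51 and -0.03.

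**Figure D2:**
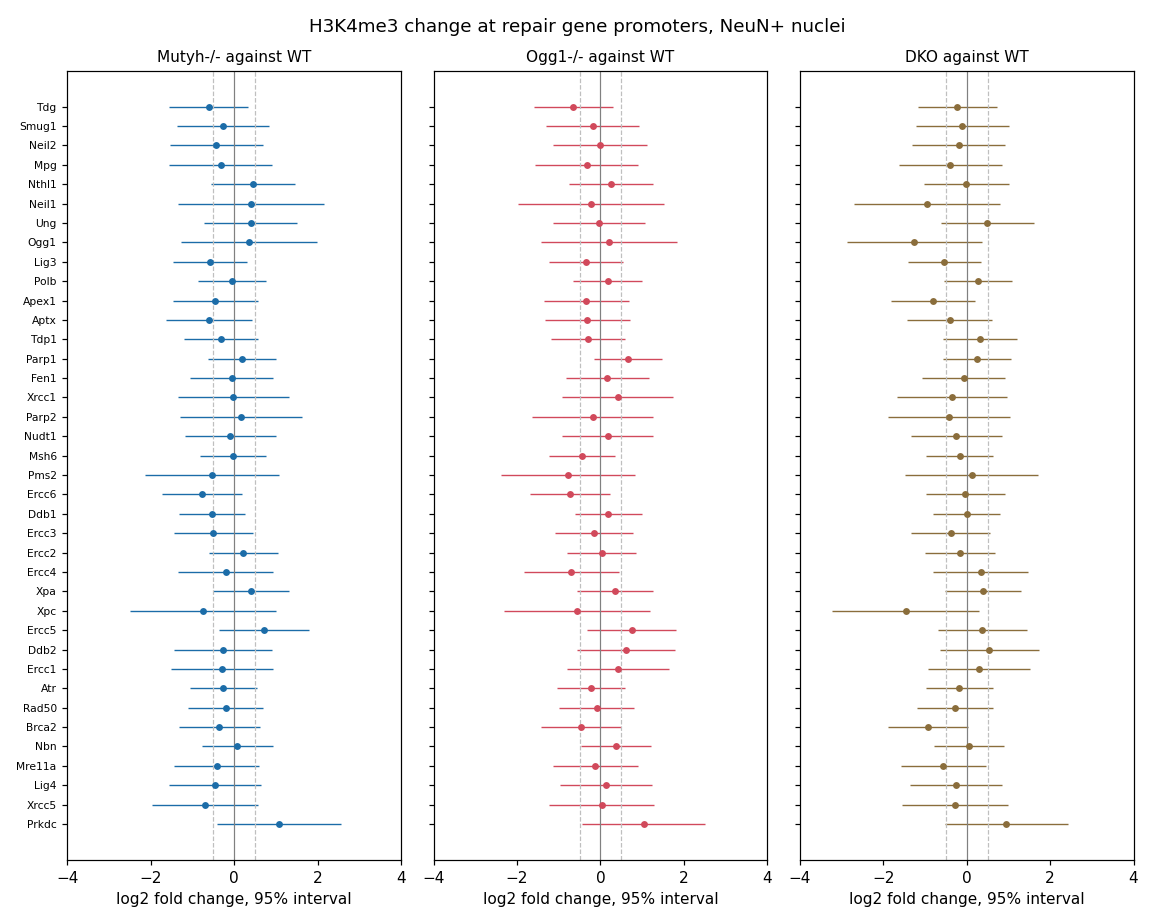
Log2 fold change of H3K4me3 signal against WT (horizontal axis, log2(value + 1) scale) at the repair gene promoter regions in NeuN+ nuclei, in panels for Mutyh-/-, Ogg1-/- and DKO. Points are limma estimates with 95% intervals and dashed lines mark 0.5 in either direction; the medians are -0.26, -0.07 and -0.18, and every interval includes 0.

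Whether the double knockout differed from the sum of the single knockouts was asked with the interaction of both losses, the change in DKO less the changes in Mutyh-/- and in Ogg1-/-. Of the 40 regions 1 was called, with 0.839% of all regions called. It was Ercc6, a remodeller for transcription-coupled repair, with 37.3, 18.5 and 48.5 in WT, 18.5, 11.0 and 30.7 in Mutyh-/-, 14.3, 12.3 and 38.5 in Ogg1-/-, and 33.8, 31.4 and 29.6 in DKO. The single knockouts were lower on average (log2 fold changes -0.77 and -0.74) and DKO was near WT (-0.03), with overlap between all groups. The non-additive term was 1.47 (95% interval 0.12 to 2.82, limma adjusted p = 1.00), and leaving out any of 5 libraries, WT replicates 1 and 3 among them, ended the call. In an F test over the 4 genotypes limma gave 0 repair gene regions at p under 0.05, and 0.451% of all regions passed.

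In NeuN- nuclei only 10 repair genes had an H3K4me3 region: Nthl1, Ung, Apex1, Lig3, Fen1, Msh6, Ddb1, Ercc4, Xpc and Atr. All 10 also had a region in NeuN+ nuclei. Of the repair genes with a NeuN+ promoter region 26.3% had one in NeuN- as well, against 26.0% of all genes (2901 of 11160). The 10 had a median NeuN+ WT signal of 23.8 and a median percentile of 49.7 among promoter regions, while all regions with a NeuN- counterpart had a median percentile of 70.3. Within NeuN- nuclei their WT signal had a median of 7.98, against 8.88 over all promoter regions. The tables were normalised separately, so signal was not tested between fractions. Of the 10 regions 5 had at least 1 library with 0 reads.

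Msh6 gave the only calls. Its signal in NeuN- nuclei was 8.30, 11.0 and 2.36 in WT, 18.1, 14.7 and 19.5 in Mutyh-/-, 17.8, 15.2 and 17.0 in Ogg1-/-, and 26.9, 9.29 and 13.4 in DKO. Both single knockouts lay above all WT libraries and DKO overlapped WT. The log2 fold change was 1.34 in Mutyh-/- (95% interval 0.10 to 2.58, limma adjusted p = 1.00) and 1.29 in Ogg1-/- (0.05 to 2.53, adjusted p = 0.999), and in DKO it was 1.15 (-0.09 to 2.39), not called. In DKO it was called with robust moderation, with TMM factors in limma, with the replicate number as a block, and without WT replicate 2 or DKO replicate 2, and whether DKO differed from the single knockouts was not tested. Calls took in 2.94% of all regions in Mutyh-/-, 3.36% in Ogg1-/- and 2.29% in DKO, and 2.35% and 2.91% were called higher in the single knockouts. WT replicate 3 had 2 reads in the region. Without it the changes were 0.79 and 0.74, neither called by limma, and edgeR on the recovered reads with either scaling, and DESeq2, made neither call. At the start of the same gene in NeuN+ nuclei the changes were -0.03 and -0.45, and the difference between fractions was not tested.

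Ung, Msh6 and no other repair gene had single knockout libraries that all lay above WT, among 7.71% of all regions in Mutyh-/- and 6.57% in Ogg1-/-. The Ung signal was 2.77, 3.94 and 4.73 in WT, 17.1, 12.1 and 6.50 in Mutyh-/-, 10.9, 7.18 and 9.94 in Ogg1-/-, and 11.1, 5.00 and 2.23 in DKO. These values rest on 2 to 5 reads per WT library (log2 fold changes 1.35, 1.11 and 0.38, SE 0.90, none called by limma). Lig3 had 4.15, 13.4 and 5.91 in WT and 28.7, 12.0 and 17.0 in Ogg1-/- (log2 fold change 1.25, 95% interval -0.07 to 2.58), with overlap. For Nthl1, Apex1, Fen1, Ercc4, Xpc, Ddb1 and Atr the WT means lay between 4.20 and 9.08, the groups overlapped, and the changes ran from -1.26 (Apex1 in DKO) to 1.28 (Atr in Ogg1-/-).

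The median change of the 10 regions was 0.65 in Mutyh-/-, 0.88 in Ogg1-/- and 0.45 in DKO, and 8, 9 and 9 of them were above 0. Over all promoter regions of the table the medians were 0.22, 0.23 and 0.05, and 61.8%, 64.1% and 52.4% were above 0. The table as a whole was thus shifted upwards under the authors' scaling. With TMM factors the median over all regions was 0.01 in Mutyh-/- and 0.07 in Ogg1-/-, and with DESeq2 the medians of the 10 were 0.26, 0.55 and 0.22. In DKO the median of the 10 was -0.00 without DKO replicate 1.

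**Figure D3:**
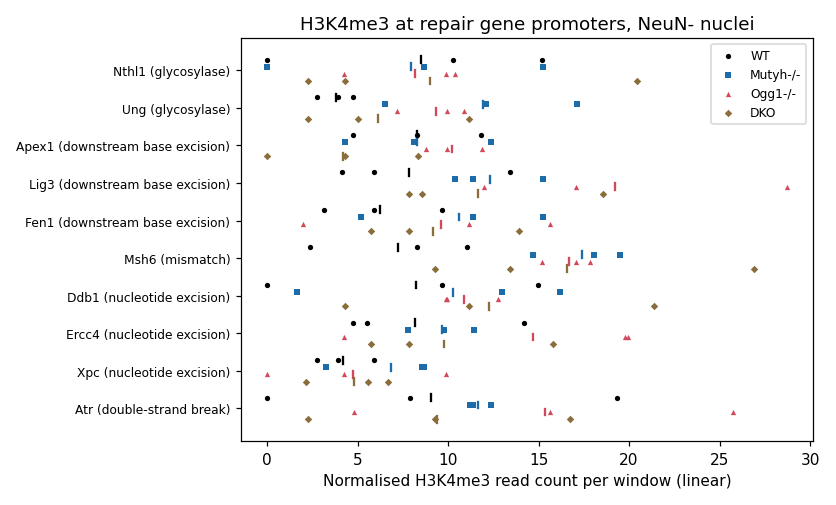
H3K4me3 signal (reads divided by a library factor) at the 10 repair gene promoter regions of NeuN- nuclei, by gene and genotype. Dots are the 12 libraries and ticks genotype means; at Msh6 the Mutyh-/- (14.7 to 19.5) and Ogg1-/- (15.2 to 17.8) libraries lie above the WT libraries (2.36 to 11.0), and at the other genes except Ung the genotypes overlap.

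Few H3K27me3 or Suz12 regions carried the name of a repair gene, and the share of all genes with such a region was not counted. H3K27me3 regions carried the name of Smug1, Xpa or Nudt1 in NeuN+ nuclei (3 of 4132 regions) and of Smug1 in NeuN- nuclei (1 of 1698). Suz12 regions carried the name of Smug1 in NeuN+ nuclei (1 of 775) and of Ung in NeuN- nuclei (7 of 312). None of the H3K27me3 regions lay at a promoter. The names followed the closest gene, and the Xpa region was 69335 bp from the Xpa start, with the start of Foxe1 77598 bp away on its other side.

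The Nudt1 region gave the strongest change among the repair genes. It covers chromosome 5, 140340647 to 140341047, in the 3′ UTR by the deposited annotation and 8691 bp from the nearest RefSeq start of Nudt1. Its H3K27me3 signal in NeuN+ nuclei was 19.7, 4.43 and 19.0 in WT, 6.09, 7.74 and 6.99 in Mutyh-/-, 3.96, 0 and 1.03 in Ogg1-/-, and 9.83, 8.72 and 9.63 in DKO. The Ogg1-/- libraries, with 4, 0 and 1 reads, lay under all others, as against WT did 5.47% of all regions, and Mutyh-/- and DKO lay within the range of WT. In Ogg1-/- the log2 fold change was -2.60 (95% interval -4.26 to -0.94, limma adjusted p = 0.983). It was the only call among the 3 regions, with 3.78% of all regions called in Mutyh-/-, 3.82% in Ogg1-/- and 3.36% in DKO, and 2.35% called lower in Ogg1-/-. In Mutyh-/- and DKO the changes were -0.73 and -0.33 (SE 0.85 each). The non-additive term was 2.99 (SE 1.20, limma adjusted p = 0.989), with 3.92% of all regions called. In the H3K27me3 and Suz12 tables limma took the spread from the trend over all regions alone, so the spread of a single region did not enter its p. With robust moderation and under the other alternatives the Ogg1-/- call was kept, with changes between -3.24 and -1.46.

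Smug1 had regions of both repressive marks on its upstream side. In NeuN+ nuclei the H3K27me3 signal, 7512 bp from the RefSeq start, was 0, 2.21 and 2.59 in WT, 1.01, 3.32 and 13.0 in Mutyh-/-, 1.98, 7.32 and 8.22 in Ogg1-/-, and 1.09, 6.79 and 8.82 in DKO. The Suz12 region lay 5772 bp from the RefSeq start. The deposited annotation set it 1964 bp upstream of its own Smug1 start and named it a promoter region. The Suz12 signal was 10.7, 16.8 and 17.4 in WT, 1.64, 18.6 and 7.10 in Mutyh-/-, 0, 16.5 and 8.46 in Ogg1-/-, and 3.40, 14.6 and 13.4 in DKO. H3K27me3 was thus higher on average in the knockouts (log2 fold changes 1.13, 1.44 and 1.27) and Suz12 lower (-1.07, -1.51 and -0.66), but the groups overlapped and limma called none of the 6. Over all regions of the Suz12 NeuN+ table the medians were -0.63, -0.57 and -0.06, and 5.16%, 3.74% and 2.58% were called.

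In NeuN- nuclei the Smug1 H3K27me3 region, 10895 bp from the start, had 0, 2.49 and 0 in WT, 12.5, 5.28 and 1.16 in Mutyh-/-, 8.77, 0 and 5.96 in Ogg1-/-, and 2.60, 0 and 5.68 in DKO. Only 1 WT library had reads there, and the groups overlapped (log2 fold changes 1.90, 1.43 and 0.93, none called by limma, with 2%, 4.18% and 2.3% of all regions called in Mutyh-/-, Ogg1-/- and DKO). The H3K27me3 region named after Xpa had 11.0, 2.21 and 3.45 in WT and between 0 and 9.63 in the knockouts, with changes of -0.56, -0.19 and 0.40.

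**Figure D4:**
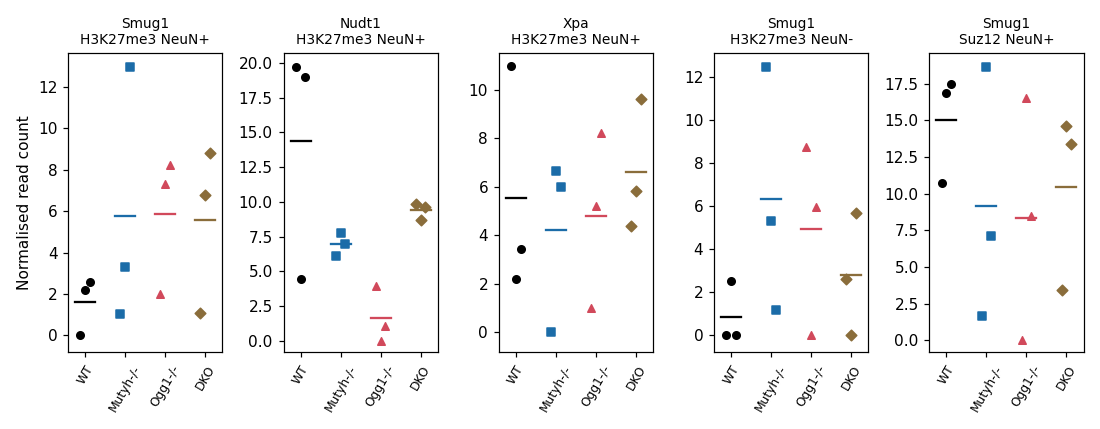
Signal (reads divided by a library factor) of H3K27me3 at Smug1, Nudt1 and Xpa in NeuN+ nuclei, of H3K27me3 at Smug1 in NeuN- nuclei and of Suz12 at Smug1 in NeuN+ nuclei, by genotype. Points are libraries (3 per genotype), short lines are genotype means, and each panel has its own linear axis; at Nudt1 the Ogg1-/- libraries (0 to 3.96) lie under those of every other genotype.

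In the Suz12 table of NeuN- nuclei the signal named after Ung lay on exons. Along chromosome 5, from 114130363 to 114138504 (8142 bp), 7 Suz12 regions carried its name. The middle of every one of the 7 windows lay in an annotated exon, and the 7 touched all 8 exons of the RefSeq annotation, counting both first exons. Of the other regions of that table, 12.1% touched an exon. Of the 18 genes with 4 or more Suz12 regions there, Ung was the only one with all of them on its own exons, and the next were Hjurp and Mroh2a with 3 of 7 each.

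The signal was also high. From the first to the last window the medians over the 12 libraries were 93.4, 221, 44.9, 38.7, 25.3, 155 and 86.4, and by mean the 7 windows ranked between 14 and 42 of 312. The median WT signal of the 56 promoter regions in the table was 7.70. The window with the highest signal, from 114131221 to 114131621, ranged from 85.2 to 427 and the lowest, from 114136192 to 114136592, from 5.37 to 82.9. Together the 7 windows took between 0.514% (DKO replicate 2) and 6.20% (WT replicate 1) of all reads in regions of a library.

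The genotypes did not separate over Ung. The summed signal was 720 ± 593 (SD, n = 3) in WT, 785 ± 161 in Mutyh-/-, 682 ± 396 in Ogg1-/- and 614 ± 272 in DKO. WT replicate 1 was the highest of all with 1404, and the other WT libraries had 382 and 372. The log2 fold changes of the 21 tests ran from -0.57 to 0.59 and limma called none, with 3.85% of all regions called in Mutyh-/-, 11.2% in Ogg1-/- and 6.73% in DKO. No H3K27me3 region in either fraction and no Suz12 region in NeuN+ nuclei lay over Ung, whose start had H3K4me3 regions with a WT mean of 15.1 in NeuN+ and 3.81 in NeuN- nuclei. The input libraries were not analysed here, so whether input carries reads over the same exons was not tested. Reads from an intron-free copy of the gene, such as a cDNA, would map to the same exons, and in these tables they cannot be told apart from Suz12 at the gene, so the values are reads over the Ung exons and not a measure of occupancy.

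**Figure D5:**
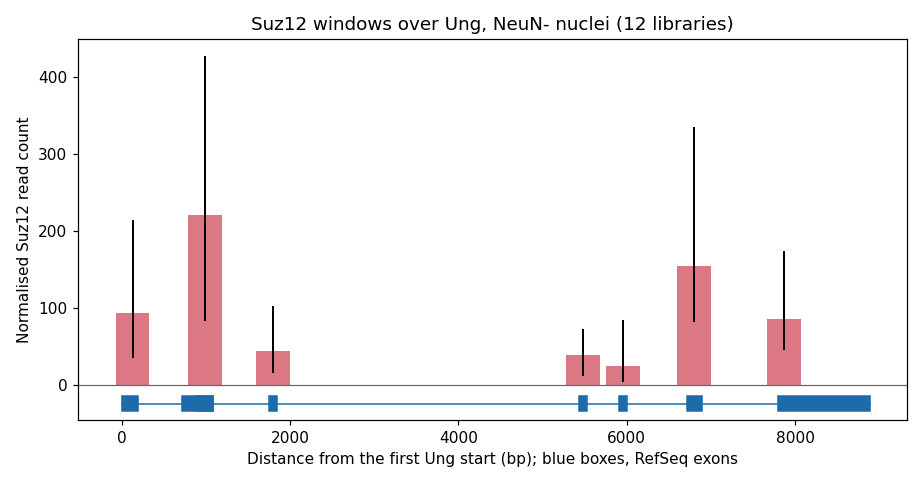
Suz12 signal in NeuN- nuclei (vertical axis, reads divided by a library factor) in the 7 regions named after Ung, by distance from the first Ung start (horizontal axis, bp). Bars are medians of 12 libraries, lines run from the lowest to the highest library and blue boxes are RefSeq exons; every bar stands over an exon, and the medians run from 25.3 to 221.

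Among 59 further repair genes outside the 48, such as Pcna, 39 had an H3K4me3 region in NeuN+ nuclei and 8 in NeuN- nuclei. Limma called 0 of these H3K4me3 regions in any knockout. In Mutyh-/-, Ogg1-/- and DKO 0.911%, 0.966% and 1.46% of all regions were called in NeuN+ nuclei. In NeuN- nuclei the shares were 2.94%, 3.36% and 2.29%, so with so few regions 0 calls were near the background. In H3K27me3 of NeuN+ nuclei 2 of the 59, Alkbh3 and Mgmt, had 8 regions, and 1 was called in the 3 contrasts, where 3.78%, 3.82% and 3.36% of all regions were called. It was a region of Mgmt, the alkylguanine transferase, in Mutyh-/- (log2 fold change -1.62, 95% interval -3.22 to -0.03, limma adjusted p = 0.998), between overlapping groups. In the Suz12 tables none of the 59 had a region.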

How the data were processed

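Single-end reads had been mapped by the authors with Bowtie2 2.3.5.1 on the GRCm38 build. They called enriched regions with epic2 (SICER), kept consensus regions found in several replicates, counted reads with DiffBind 3.10.1 and named the closest gene with ChIPseeker 1.36. The deposited values are signal, which is reads per window divided by a factor for each library. All values were whole multiples of 1 step per library (tolerance 0.01), so 100% of reads were recovered, and the share of reads in regions that each table holds is not the depth of the library. How duplicates and input were handled is not given in the sources used here. The 24 input libraries, which the tables do not list, were not analysed here. Libraries with labels for genotype and replicate number were grouped by the labels. For H3K4me3 the limma p-values draw on the spread of a region between these pools and on the trend over all regions. For H3K27me3 and Suz12 they draw on that trend alone.

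Each table was fitted alone with limma 3.58.1 (R 4.3.3), limma-trend on log2(value + 1), genotype as the only term and the 12 libraries together. The prior degrees of freedom were 24.9 and 58.3 for H3K4me3 in NeuN+ and NeuN- and infinite in the other 4 tables. A region is called at p under 0.05 together with a log2 fold change over 0.5 in size, the definition used by the study, and adjusted p is Benjamini-Hochberg over a table. The pseudocount of 1 understates changes at low values. The fit was tested on simulated data. Alternatives were pseudocounts of 0.5 and 5, a filter on the lowest 25% of regions, robust moderation, TMM factors, edgeR 4.0.16 and DESeq2 1.42.0 on recovered reads, the 6 libraries of a contrast, a replicate block, and each library left out.

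Correlations between the deviations of same-numbered replicates were all over 0.1 only for Mutyh-/- in Suz12 NeuN+, with 0.388, 0.186 and 0.119. Starts, exons and promoters are RefSeq GRCm38.p6, the build of the files. The genes and lists were chosen with earlier results of these data known. Named with values were Ogg1 and Mutyh, each glycosylase with a region, each called region, each H3K27me3 or Suz12 region, the 3 highest and 3 lowest WT promoters and each gene with a NeuN- H3K4me3 region. Tdp1, Aptx and further genes are covered by counts and ranges, and Apex1, Lig3, Parp1, Polb, Fen1, Pms2, Ddb1, the Ercc1 upstream region, Brca2 and Ercc6 were named after their values were seen.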

Additional observations from a re-analysis of the deposited data

Results flagged for a closer look

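Of the 62 repair gene regions, 2 were called by the interaction term of the limma fit. This term is the effect of losing Ogg1 in mice without Mutyh less that in mice with it. Over the 6 tables it called from 0.839% to 5.45% of all regions, so 2 calls were near the background. At the Nudt1 H3K27me3 region in NeuN+ nuclei the difference was 2.99 on the log2 scale (SE 1.20, limma adjusted p = 0.989), with a change of -2.60 in Ogg1-/- and DKO libraries within the range of WT. At the Ercc6 H3K4me3 region in NeuN+ nuclei it was 1.47 (SE 0.66, limma adjusted p = 1.00). Neither passed the correction over its table. The Nudt1 term rests on 4, 0 and 1 reads in the Ogg1-/- libraries, and the part of depth in it was not tested. With 3 libraries per genotype no single library was tested as an outlier.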

How the results depend on the processing

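The count of repair gene regions called in H3K4me3 of NeuN+ nuclei was 0 with limma under the authors' scaling and rose to 6 with TMM factors in limma, 7 in edgeR and 4 with DESeq2. With limma and TMM these were Parp1, Tdg, Ercc6 and Msh6 in Ogg1-/- and Apex1 and Brca2 in DKO, while 3.81% and 5.54% of all regions were called. Leaving out 1 library gave 0 to 4, with 4 (Brca2, Xpc, Ogg1 and Neil1) without DKO replicate 2, where 4.04% of all regions were called in DKO, 3 without WT replicate 2 (0.934% to 1.86%), 2 without Ogg1-/- replicate 2 (3.25% in Ogg1-/-) or 3 (2.65%), and 1 without DKO replicate 3 (3.75% in DKO) or Mutyh-/- replicate 3 (2.21% in Mutyh-/-). In NeuN- nuclei the count of 2 became 0 with a pseudocount of 5, 0 in edgeR with TMM or the authors' factors and 0 with DESeq2, 3 with robust moderation and 4 with limma and TMM, where 4.80% to 5.38% of all regions were called. It was 0 to 4 with a library left out, with 0 without WT replicate 3, 4 without WT replicate 1 or 2, and 1 without Mutyh-/- replicate 1 or 3 or Ogg1-/- replicate 1 or 3. The F test over genotypes went from 0 to 2 with TMM in limma or edgeR and with DESeq2, and 0 to 2 with a library left out. The non-additive count of 1 became 3 with limma and TMM, 2 in edgeR with TMM or the authors' factors and 2 with DESeq2, and 0 to 3 with a library left out, with 0 without WT replicate 1 or 3, Mutyh-/- replicate 2 or Ogg1-/- replicate 1. In H3K27me3 and Suz12 the count of called regions was 1 to 2, with Smug1 in NeuN- nuclei added without Mutyh-/- replicate 3. For the F test, the non-additive term and this count, the shares of all regions under the alternatives are not given. A rise in these counts therefore cannot be set against the background. The cause was not tested.

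Every correlation between same-numbered replicates was over 0.1 in Mutyh-/- of Suz12 NeuN+ alone, where the replicate block changed no call. Elsewhere the correlations ran from -0.101 (DKO in H3K4me3 NeuN+) to 0.285 (Ogg1-/- in Suz12 NeuN+). In H3K4me3 NeuN- all were positive, up to 0.125 in DKO. The same held in H3K27me3 NeuN+ (up to 0.093 in Mutyh-/-), H3K27me3 NeuN- (up to 0.153 in DKO) and Suz12 NeuN+. Whether same-numbered libraries shared a batch was not tested. The replicate block gave 4 calls in H3K4me3 NeuN- (with 4.46% to 5.72% of all regions called) and changed no other count. At an adjusted p under 0.05 the count was 0 under all 22 alternatives. The Nudt1 call in Ogg1-/- was kept under all 22, and the Msh6 calls under 15 (Mutyh-/-) and 13 (Ogg1-/-). The NeuN+ medians lay between -0.51 and -0.03 (Mutyh-/-), between -0.29 and 0.23 (Ogg1-/-) and between -0.40 and 0.09 (DKO). The NeuN- median of 0.65 in Mutyh-/- became 0.26 with DESeq2, and with a library left out it was 0.36 to 1.03, the last without Mutyh-/- replicate 3. The NeuN- median of 0.88 in Ogg1-/- became 0.50 with a pseudocount of 5, 1.09 with the lowest 25% of regions left out, 0.57 in edgeR with TMM and 0.55 with DESeq2, and with a library left out it was 0.37 (without WT replicate 3) to 1.12 (without WT replicate 2). The fit on 6 libraries was not run for the F test and the non-additive term. Alternatives for the NeuN- medians, for both non-additive terms and for the Ift122 region were added after seeing the data. A typical NeuN- region had 9 reads, and small changes were not detectable there.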

Other observations

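The region named after Ift122, which lies over the Ift122 start and comes within 74 bp of the start of Mbd4, a glycosylase for mispaired thymine, was singled out after its values were seen. Its H3K4me3 signal in NeuN+ nuclei was 19.3, 20.5 and 8.62 in WT, 8.72, 4.59 and 8.76 in Mutyh-/-, 4.76, 0 and 8.46 in Ogg1-/-, and 0, 8.04 and 12.1 in DKO. All Ogg1-/- libraries lay under WT, as in 0.855% of all regions, with a log2 fold change of -2.09 (95% interval -4.03 to -0.15, limma adjusted p = 1.00). The call was kept under 18 of 21 alternatives and lost without WT replicate 1, WT replicate 2 or Ogg1-/- replicate 2, where the change was -1.13. Mbd4 and Ift122 start 187 bp apart, so the signal cannot be assigned to either gene. The region starts at 115853415 on chromosome 6, which also holds the deleted Ogg1 gene (promoter region from 113326823). Whether DNA linked to the knockout allele has a part in the change was not tested.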
